A study of Mus musculus with 3 samples.

Results

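The genes described here encode the phagocyte NADPH oxidase, the enzyme complex with which phagocytes make superoxide. They were the rows of the deposited table with the symbols Cybb, Cyba, Ncf1, Ncf4 and Rac2, and all 5 were found among 34590 gene symbols. The study cultured primary mouse bone marrow-derived dendritic cells, antigen-presenting cells grown from marrow with the growth factor GM-CSF. On day 6 the non-adherent cells were collected, and they were kept for 48 h with 800 ng/ml recombinant articulatin B chain (rATB), with buffer, or untreated as control. Articulatin is a mistletoe lectin with a sugar-binding B chain, and rATB is that chain made as a recombinant protein. The sources used here give no mouse strain, sex or age. For buffer a dose of 1 ng/ml is recorded, and what it refers to is unclear.

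Each group was 1 library, so no difference below has a replicate check and none was tested. Reads assigned to genes, as recovered from the deposited values, totalled 15203139 in rATB cells, 16105080 in buffer cells and 17776492 in untreated cells. Levels are in units of scaled reads: reads with the authors' scaling between libraries kept, per 1000000 reads of the control library. Intervals are exact 95% intervals for counting error alone. The dendritic cell integrin gene Itgax stood at 981, 1213 and 1200.0 units in rATB, buffer and untreated cells, and all 10 dendritic cell markers were detected. Of 12 neutrophil markers the summed level was 98.1, 93.3 and 123 units in the same order. Among them Mpo, a gene of granule-forming neutrophil precursors, had 0, 1 and 0 reads. Elane had 12, 12 and 2 reads, and Prtn3 had 93, 58 and 56. The most abundant of the 12 were Csf3r, at 47.9, 45.3 and 61.5 units, and S100a8, at 27.1, 24.9 and 22.6. Ngp was lowest with rATB, unlike Prtn3, at 2.92, 4.98 and 11.2 units. Over the 6 that averaged 1 unit or more, the median difference in log2(units + 1) was 0.10 from buffer and -0.53 from the control.

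The oxidase sits idle in resting cells as a membrane pair, gp91phox (Cybb) and p22phox (Cyba), which together form flavocytochrome b558. On activation, cytosolic subunits, p47phox (Ncf1) and p40phox (Ncf4) among them, move to the membrane with a Rac GTPase, and electrons pass from NADPH through gp91phox to oxygen. In dendritic cells the complex is known to raise the pH of phagosomes, which slows the breakdown of antigen. Loss of its subunits in people and mice gives chronic granulomatous disease.

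Promoter sequences of Cybb, Cyba and Ncf1, 3 of the 5 genes, were taken from RefSeq (GRCm38.p6). All 5 genes were looked up, and the source used held no promoter sequence for Ncf4 and Rac2. Each runs 5′ to 3′ along the gene's own strand, from 180 bases before the annotated start to 20 bases after it. Capitals mark matches to GAGGAA, the core of binding sites for the myeloid factor PU.1, to GAAA repeated after any 2 bases (the spaced GAAA pair), a form of interferon response element, and to CCAAT. Both strands were searched, so a match on the opposite strand appears as its reverse complement, and no matches overlapped. The motifs were chosen with these sequences in view.
Cybb, chrX:9469305-9469504, minus strand: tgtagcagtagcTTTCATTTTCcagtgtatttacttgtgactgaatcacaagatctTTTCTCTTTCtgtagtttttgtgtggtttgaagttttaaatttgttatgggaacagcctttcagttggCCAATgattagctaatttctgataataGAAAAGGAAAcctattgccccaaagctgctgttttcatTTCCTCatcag
Cyba, chr8:122432921-122433120, minus strand: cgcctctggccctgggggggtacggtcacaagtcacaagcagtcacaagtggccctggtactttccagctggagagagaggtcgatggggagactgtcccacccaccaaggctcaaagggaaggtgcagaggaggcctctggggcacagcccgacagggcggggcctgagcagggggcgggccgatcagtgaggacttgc
Ncf1, chr5:134229606-134229805, minus strand: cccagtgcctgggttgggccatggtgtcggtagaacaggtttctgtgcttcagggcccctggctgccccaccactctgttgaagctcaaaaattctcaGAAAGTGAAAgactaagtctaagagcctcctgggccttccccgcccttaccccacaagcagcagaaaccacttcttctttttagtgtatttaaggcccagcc
The Cybb window held the spaced GAAA pair 3 times, GAGGAA 1 time, just after the start, and CCAAT 1 time. The Ncf1 window held the spaced GAAA pair 1 time and the Cyba window had no match to any of the 3. Of 32851 windows of the same length over the RefSeq promoters, 2.24% held the spaced GAAA pair, 19.1% GAGGAA and 29.2% CCAAT. These are matches of letters, and binding was not measured.

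Cybb, the catalytic subunit, was the one gene of the 5 whose level differed by more than a small amount. It had 18596 reads in rATB cells, 32597 in buffer cells and 39140 in untreated cells, or 1182, 1909 and 2202 units. The rATB library was the lowest of the 3, and buffer was also below the control. The rATB level was 0.619 times the buffer level (interval 0.608 to 0.631) and 0.537 times the control level (interval 0.527 to 0.546). Buffer stood at 0.867 times the control (interval 0.854 to 0.880). In RNA from a whole culture, fewer cells of a type that expresses Cybb and less Cybb RNA per cell cannot be told apart.

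The other membrane subunit did not follow. Cyba, whose protein p22phox stabilises gp91phox and docks the cytosolic subunits, had 8348 reads in rATB cells, 9002 in buffer cells and 9916 in untreated cells. Those were 531, 527 and 558 units, with rATB between the other libraries under the deposited scaling. With each library scaled by its own total (CPM), rATB was instead just below buffer, by -0.03 in log2(units + 1). The ratio of rATB to buffer was, with the deposited scaling, 1.01 (interval 0.977 to 1.04), so no difference was detectable at this depth, and that of rATB to the control was 0.951 (interval 0.924 to 0.979).

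**Figure D1:**
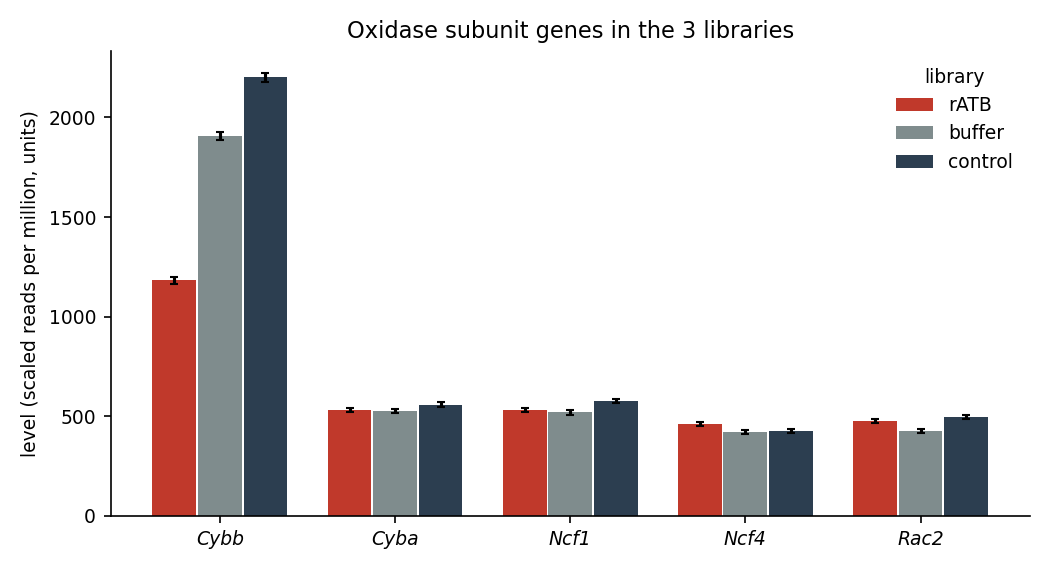
Level of each oxidase subunit gene in units of scaled reads per 1000000, as bars from 0, in the rATB, buffer and control libraries, 1 library each, with exact 95% Poisson intervals for counting error. Cybb stands at 1182 units in rATB cells, against 1909 in buffer cells and 2202 in untreated cells, while the bars of the other 4 genes differ little between libraries. Heights of different genes are not corrected for length.

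Of the cytosolic subunits, Ncf1, the organiser that bridges the complex to p22phox, stood at 530.3 units in rATB cells, 519 in buffer cells and 575 in untreated cells. Its ratio of rATB to buffer was 1.02 (interval 0.992 to 1.05), again within counting error, and its ratio to the control was 0.922 (interval 0.896 to 0.949). The order of its 3 libraries was that of Cyba. Ncf1 shares 408 bases of its exons with Gtf2ird2 on the opposite strand, and a library kit that does not mark strand cannot separate their reads there. Gtf2ird2 was itself at 29.4 units in rATB cells, 36.6 in buffer cells and 37.0 in untreated cells, far below Ncf1.

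Ncf4, which binds the phagosome lipid phosphatidylinositol 3-phosphate and sustains the oxidase there, was slightly higher with rATB. It stood at 459 units in rATB cells, 420.3 in buffer cells and 426 in untreated cells. Its ratios were 1.09 to buffer (interval 1.06 to 1.13) and 1.08 to the control (interval 1.04 to 1.11). It was the only one of the 5 genes with its highest level in the rATB library under the deposited scaling.

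Rac2, the Rac GTPase of blood cells, stood at 475 units in rATB cells, 427 in buffer cells and 494 in untreated cells. As for Cyba, Ncf1 and Ncf4, the buffer library was the lowest under the deposited scaling, for Rac2 at 0.864 times the control (interval 0.838 to 0.892). That Rac2 difference was -0.21 in log2(units + 1), and -0.13 with CPM. The ratio of rATB to buffer was 1.11 (interval 1.08 to 1.15) and that of rATB to the control 0.961 (interval 0.932 to 0.992), a difference that was 0.00 in log2(units + 1) with median-of-ratios scaling.

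Ncf1, Ncf4 and Rac2 thus lay within a narrow range of ratios, from 1.02 to 1.11 against buffer and from 0.922 to 1.08 against the control.

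**Figure D2:**
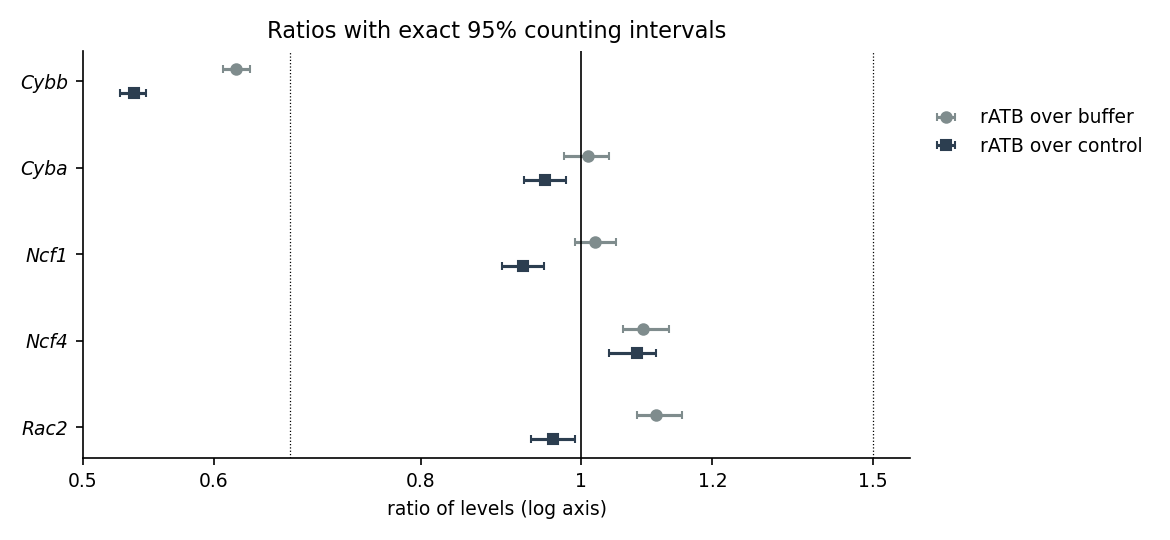
Ratio of the rATB level to the buffer level (circles) and to the control level (squares) for the 5 genes, on a log axis, with exact 95% counting intervals as bars and dotted lines at 1.5-fold in either direction. Cybb lies at 0.619 and 0.537, outside the dotted lines, and the others lie between 0.922 and 1.11.

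Against all genes, the Cybb difference was toward the low end, though no set of genes matched to its level was used. Differences are given as log2(units + 1), which understates changes of low genes, over the 12559 genes that averaged 1 unit or more. Cybb differed by -0.69 from buffer and by -0.90 from the control, and the other 4 genes by 0.01 to 0.15 and by -0.12 to 0.11. The median over all genes was 0.00 against buffer and -0.06 against the control. None of the 5 genes reached a 2-fold difference, a size passed in either direction by 1.57% of all genes against buffer and by 1.83% against the control. At 1.5-fold, 1 of the 5, Cybb, was lower with rATB than buffer, where 3.16% of all genes were, and lower than the control, where 3.87% were. None was 1.5-fold higher, against 3.26% and 3.08% of all genes. Between buffer and control none of the 5 differed by 1.5-fold in either direction, and 1.08% of all genes did.

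High levels give narrow intervals, so a further count was made by interval. Cybb was below both other libraries with intervals that excluded 1, as were 15.4% of all genes, and Ncf4 was above both, as were 11.4%. Among the 4125 genes that averaged 50 units or more, 39 had a difference from buffer as low as that of Cybb or lower, which is 0.945%, and 36 had one from the control, 0.873%. For Ncf1, by contrast, 55.2% of those genes were at or below its difference from buffer. Cybb ranked number 63 of all genes by units in the rATB library, 34 with buffer and 29 in the control.

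**Figure D3:**
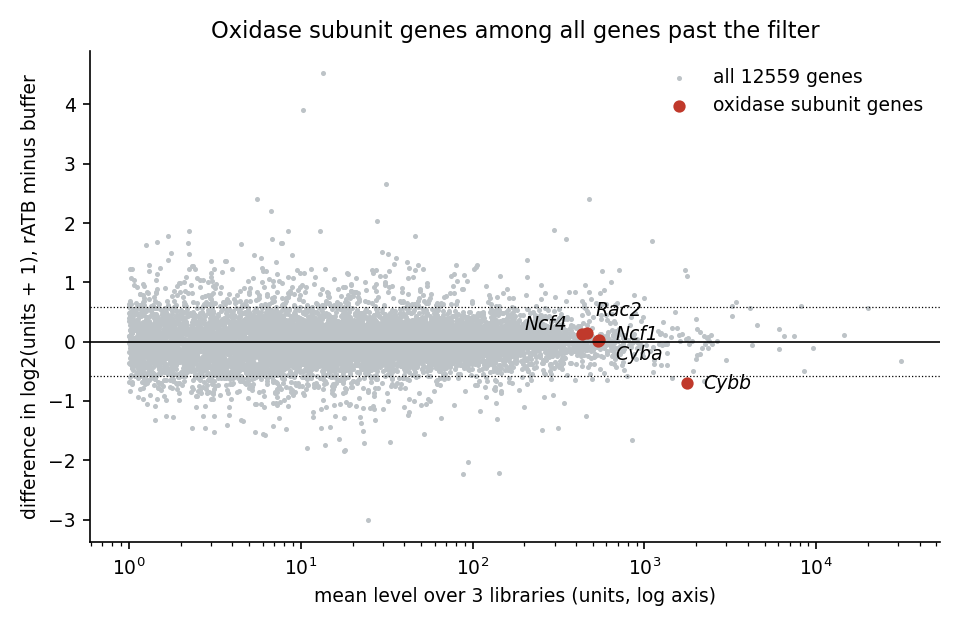
Difference in log2(units + 1), rATB minus buffer, against the mean level over the 3 libraries (log axis) for 12559 genes (grey) with the 5 oxidase subunit genes in red and dotted lines at 1.5-fold. Cybb lies at -0.69, below the lower dotted line, and the other 4 lie between 0.01 and 0.15.

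Ratios inside a library do not depend on how libraries were scaled to each other. For each read of Cyba there were 2.23 reads of Cybb in rATB cells, 3.62 in buffer cells and 3.95 in untreated cells. The same ratio was 2.23, 3.68 and 3.83 for Ncf1, 2.57, 4.54 and 5.17 for Ncf4, and 2.49, 4.47 and 4.46 for Rac2. The rATB library was the lowest for each of the 4 partners. Cybb made up 37.2% of the reads of the 5 genes with rATB (Clopper-Pearson interval 36.8% to 37.6%), 50.2% with buffer (interval 49.8% to 50.6%) and 51.7% in the control (interval 51.4% to 52.1%). Without Cybb, the summed level of the other 4 was 1995 units in rATB cells, 1893 in buffer cells and 2053 in untreated cells. With the deposited scaling that sum was 1.05 times buffer (interval 1.04 to 1.07) and 0.972 times the control (interval 0.957 to 0.986).

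**Figure D4:**
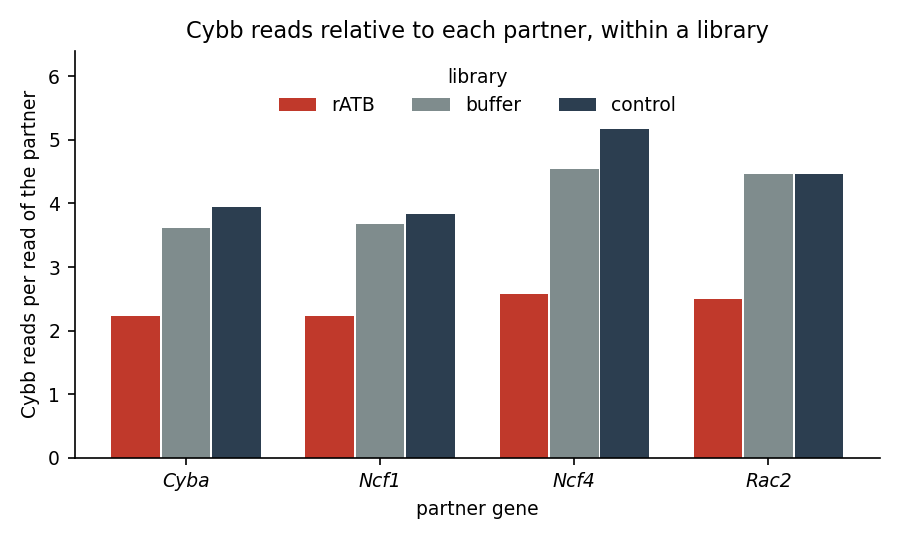
Reads of Cybb for each read of Cyba, Ncf1, Ncf4 and Rac2 within the rATB, buffer and control libraries, as bars from 0. The ratio is between 2.23 and 2.57 with rATB and between 3.62 and 5.17 in the other libraries.

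Read counts also depend on transcript length, which the longest basic coding transcript of GENCODE M21 (GRCm38) was used to correct. Per kilobase of transcript, Cyba was the most abundant of the 5, at 713 units in rATB cells, 708 in buffer cells and 749.8 in untreated cells. Cybb stood at 249, 402 and 463 units per kilobase in the same order, and Ncf4 at 314, 287 and 291. On this scale Cybb was below Ncf4 with rATB and above it in both other libraries. Ncf1 and Rac2 were the lowest per kilobase of transcript, at 184 and 156 units with rATB. The order depends on the length used. Per kilobase of coding length, Rac2 stood at 823 units in rATB cells, 740.0 in buffer cells and 856 in untreated cells, above Ncf4 at 452, 413 and 419 and Ncf1 at 425, 416 and 461. Cybb was then above Ncf4 in all 3 libraries. On that scale Cybb stood below Cyba with rATB, at 691 against 921, and above it with buffer, at 1116 against 915, and in the control, at 1288 against 968. Stretches of 75 bases from the transcripts of Cybb, Cyba, Ncf4 and Rac2 were found in no other gene's transcripts, and 5.44% of those from Ncf1 were.

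Patterns close to that of each gene were looked for among the genes that averaged 50 units or more, by the distance between their 2 differences, from buffer and from the control, over the 3 libraries. Nearest to Cybb was Gbp7, at 95.1 units in rATB cells, 156 in buffer cells and 181 in untreated cells (distance 0.032). Within a distance of 0.1 there were 10 genes for Cybb, against 1005 for Cyba, 846 for Ncf1, 522 for Ncf4 and 428 for Rac2. Fewer genes lie far from the median of all genes, so these counts restate the size of the Cybb difference. The nearest to Cyba were Tnfaip1 and Angel2, to Ncf1 Snapin and Zmiz1, to Ncf4 Cdk2 and Ddi2, and to Rac2 Slc25a39 and Tns4.

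Genes that support or resemble the complex were followed as 5 lists, of which every symbol was found. In the list of oxidase relatives and of factors for its maturation and ion balance, 10 of 16 genes passed the filter, with a median of 0.07 for rATB minus buffer and of -0.09 for rATB minus control. None differed by 1.5-fold, 4 were below both other libraries beyond counting error and 1 was above. Over all genes these shares were 15.4% and 11.4%, and highly expressed genes pass more readily, so the counts in this list and the next ones say little by themselves. Hvcn1, the proton channel that balances the charge moved by the oxidase, stood at 287 units in rATB cells, 333 in buffer cells and 357 in untreated cells. Hsp90b1, an endoplasmic reticulum chaperone, stood at 524 units against 671 and 723. Cybc1, which encodes the chaperone EROS needed to make gp91phox, stood at 129 units in rATB cells, 111 in buffer cells and 124 in untreated cells. Its ratio was 1.16 to buffer (interval 1.09 to 1.24) and 1.04 to the control (interval 0.980 to 1.11), within counting error for the control. Rac1 stood at 399.8, 377 and 401 units, and it overlaps Daglb on the opposite strand, so its level is uncertain. Noxo1 was low, at 2.99, 1.93 and 2.25 units. Nox3, Nox4, Duox1 and Duox2 had 0 reads in every library, which allows up to 0.191 units in rATB cells, 0.176 in buffer cells and 0.169 in untreated cells.

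The list of genes that signal to the oxidase had medians of -0.03 and -0.18 over 28 genes, with 11 below both other libraries beyond counting error and 4 above. Protein kinase C phosphorylates p47phox, and its genes Prkcd and Prkcb were among the 11. Prkcd stood at 850.2 units in rATB cells, 1219 in buffer cells and 1278 in untreated cells. Prkcb stood at 98.3 units in rATB cells, 156 in buffer cells and 157 in untreated cells, and it was the 1 gene of the list lower than buffer by 1.5-fold. Pak1, a kinase that Rac switches on, stood at 33.6 units against 48.5 and 55.7. Against the control 4 genes were lower by 1.5-fold, and 0 were higher by 1.5-fold against either library. Over all genes, 3.16% were lower by 1.5-fold against buffer and 3.87% against the control, and 3.26% and 3.08% were higher.

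Transcription factors known to act on oxidase genes had medians of 0.08 and 0.00 over 11 genes, with 3 below both other libraries beyond counting error and 5 above. Spi1, which encodes PU.1, stood at 266 units in rATB cells, 315 in buffer cells and 348 in untreated cells, so that rATB was 0.846 times buffer (interval 0.812 to 0.881). Irf8, a partner of PU.1 that is known to activate Cybb, was in the other direction, at 566 units in rATB cells, 378 in buffer cells and 384 in untreated cells. It differed by 0.58 from buffer and by 0.56 from the control in log2(units + 1), just under 1.5-fold. Cebpb stood at 1.35 times the buffer level (interval 1.25 to 1.45) and Cebpe at 0.757 times (interval 0.660 to 0.868).

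Genes that supply NADPH, the fuel of the oxidase, had medians of 0.04 and -0.16 over 16 genes, with 4 below both other libraries beyond counting error and 4 above. Nadk, the kinase that makes NADP from NAD, stood at 149.9 units in rATB cells, 236 in buffer cells and 266 in untreated cells, and was lower by 1.5-fold against both. G6pdx, the first enzyme of the pentose phosphate pathway, stood at 150.4 units against 207 and 222. Me1, malic enzyme, was higher by 1.5-fold against both but rested on 63 reads in rATB cells, 39 in buffer cells and 32 in untreated cells. Genes that handle superoxide and peroxide had medians of -0.06 and -0.06 over 13 genes, with 6 below both beyond counting error and 2 above. Nos2, the inducible nitric oxide synthase, was the member past 1.5-fold, at 22.7 units in rATB cells, 0.586 in buffer cells and 7.48 in untreated cells. Those levels rested on 357, 10 and 133 reads. Buffer was itself at 0.0783 times the control for Nos2 (interval 0.0367 to 0.148). Txnrd1, thioredoxin reductase, stood at 164 units against 226 and 236, and Prdx2 at 143 against 115 and 114.

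**Figure D5:**
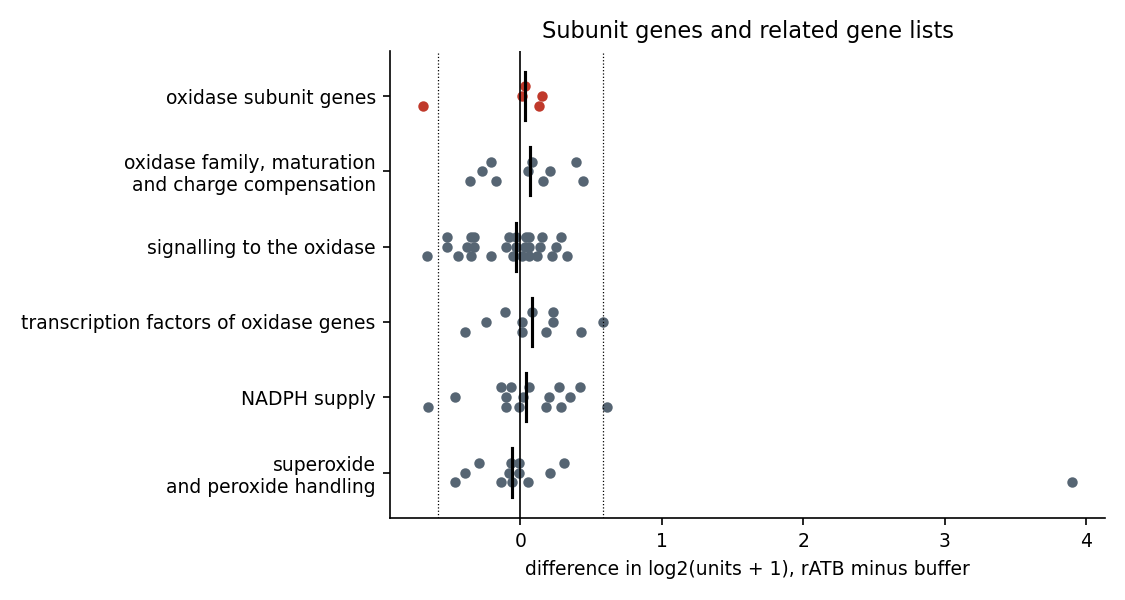
Difference in log2(units + 1), rATB minus buffer, for each gene past the filter (points, spread vertically for legibility) in the oxidase subunit genes (red) and in 5 related lists, with black bars at the medians and dotted lines at 1.5-fold. The medians lie between -0.06 and 0.08, Cybb is the red point at -0.69, and the point at 3.90 is Nos2, which had 10 reads in buffer cells.

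Summed levels of monocyte, macrophage and dendritic cell markers were lowest in the rATB library, as that of Cybb was. Such sums follow a few abundant genes, and the members of the macrophage and dendritic cell lists were mixed. The 6 monocyte markers summed to 341 units in rATB cells, 655 in buffer cells and 739 in untreated cells, and Ly6c2, which defines classical monocytes, was near 0 in each, at 0.381, 0.293 and 0.619 units. Most of that sum was Ccr2, at 229, 544 and 589.7 units. Of the 6, 3 were below both other libraries beyond counting error, where 15.4% of all genes were. None was above both, where 11.4% of all genes were. The median difference of the 5 monocyte markers past the filter was -1.06 from buffer and -1.18 from the control. The 10 macrophage markers summed to 3856, 4147 and 5317 units in the same order, with 5 below both and 3 above and a median difference of -0.01 from buffer. C1qa stood at 134, 258 and 386 units, whereas Mrc1 stood at 163, 139.6 and 132 and Mertk at 51.7, 43.4 and 44.2. The 10 dendritic cell markers summed to 9294, 11755 and 14161 units, most of it Cd74, with 5 below both and 4 above and a median difference of -0.14 from buffer. Ccr7, a receptor of migrating dendritic cells, was among the 4, at 1252, 723 and 621 units. The lists of other cells were low in every library: up to 33.2 units for eosinophils, 36.1 for mast cells or basophils, 0.890 for B cells, 6.50 for T or NK cells and 0.191 for red cell precursors. The part of the monocyte, macrophage and dendritic cell markers in the Cybb difference was not tested.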

How the data were processed

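RNA was extracted with TRIzol and sequenced as 150-base pairs on a HiSeq2500 after a TruSeq version 2 library preparation, per the labels' protocols. Reads were aligned with TopHat2 2.0.13, per the submitters' processing notes, which name GRCh37, a human build, for mouse gene identifiers, so the build is unclear. The counter and the scaling are not stated there. The authors deposited log2 values, in which 53.1% to 54.0% of cells per column hold a spreadsheet error for the log2 of 0.

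On the linear scale 100.0% of values above 0 were whole multiples of the column's smallest value (tolerance 1e-06), so read counts were recovered. The deposited scaling was kept, with factors of 1.13 for rATB, 1.04 for buffer and 1.00 for the control. Symbols came from the file, with 25 damaged ones restored by identifier, and 32919 of 37991 identifiers matched a name table. With 1 library per group no test was made, and sizes of 2-fold and 1.5-fold and counting intervals were used instead. Ratio intervals are conditional Clopper-Pearson intervals from 2 counts, and a count of 0 was read as up to 3 counts. The unit entered for the deposited columns was neither counts nor a normalised level, so the planned rules were applied to the recovered reads. PCR reads without molecular identifiers are not independent molecules. The interval and fold rule were checked on simulated Poisson counts. Those hold counting error alone, so the check says nothing about variation between cultures or from PCR. Named genes were the 5 members, up to 3 genes per related list with the largest smaller difference from buffer and control in the same direction, and Cybc1, Rac1, Hvcn1, Spi1, Irf8 and Prkcd. Gtf2ird2, Daglb, the zero-read genes and the markers were named beside them after their values were seen. Some items that this rule covers are not reported here. The members and lists were chosen with earlier results of these data known. Python 3.11.15, pandas 2.3.3 and scipy 1.17.1 were used.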

Additional observations from a re-analysis of the deposited data

How the results depend on the processing

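Each group held 1 library, so no replicate could be left out. No paired analysis was possible because each group has 1 library and the labels pair none. Under CPM, median-of-ratios, upper-quartile scaling and a pseudocount of 0.1, Cybb stayed at least 1.5-fold lower with rATB against both other libraries, and none of the other 4 genes reached 1.5-fold. CPM moved the Cybb difference from buffer to -0.73. Its difference from the control moved to -0.85 with CPM and to -0.84 with median-of-ratios and with upper-quartile scaling. The median of the 5 genes against the control moved from -0.07 to -0.02 with all 3 scalings. The median of buffer minus control moved from -0.15 to -0.06 with CPM, -0.10 with median-of-ratios and -0.09 with upper-quartile scaling. Of 60 values of the 5 genes under an alternative, 31 moved by more than counting error, and the Cybb differences from buffer and from the control stayed below 0 in each. The small differences of Cyba, Ncf1, Ncf4 and Rac2 each crossed or reached 0 in some comparison under another scaling. For Ncf4 that comparison was buffer minus control, which moved from -0.02 to 0.06 with CPM. Its difference from buffer was lowest with CPM, at 0.09, and its difference from the control lowest under the deposited scaling, at 0.11.

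The number of genes 2-fold different from buffer was 197, and became 38 with a filter at 50 units and 358 with a pseudocount of 0.1. Genes 1.5-fold lower numbered 397, and became 255 and 62 with filters at 5 and 50 units and 643 with a pseudocount of 0.1. The share of Cybb in Cybb plus Cyba reads was 69.0% in rATB cells, 78.4% in buffer cells and 79.8% in untreated cells, and per kilobase of transcript it was 25.9%, 36.2% and 38.2%.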
